A study of Mus musculus with 4 samples.

Results

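Tcf7, Lef1, Bcl11b, S1pr1, Klf2, Cd28 and Icos are genes of T-cell identity, homing and co-stimulation. Their transcripts were followed here through the bone marrow of TLR9-/- and WT mice. Not all of them mark unprimed cells, as the paper used Icos among the markers of its CD4 effector memory and regulatory T cells. The 7 genes were taken by symbol from the 31053 genes of the 4 matrices, and each symbol occurred once. All mice were C57BL/6. The TLR9-/- group was deficient in Toll-like receptor 9, an endosomal sensor of unmethylated DNA, and the WT group carried the intact gene. There were 2 mice per genotype and 1 library per mouse, made from bone marrow mononuclear cells of femur and tibia with a 5′ single-cell RNA assay. Per the methods of the study, the libraries came from 2 separate experiments with a mouse of each genotype in each, and the labels do not say which libraries shared an experiment. The genotypes were bred in separate cages, so genotype and cage cannot be told apart, and the age and sex of these mice are not given in the sources used here.

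The 7 genes belong to 3 groups by function. Tcf7 encodes TCF1 and Lef1 encodes LEF1, related high-mobility-group transcription factors that bind the same DNA element and can recruit beta-catenin, and Bcl11b is a zinc-finger factor that fixes T-lineage commitment in the thymus. S1pr1 is the sphingosine-1-phosphate receptor by which lymphocytes leave lymphoid organs and marrow for the blood, and Klf2 is a zinc-finger factor that maintains quiescence and activates S1pr1. Cd28 and Icos are related co-stimulatory receptors of T cells, the first for the ligands CD80 and CD86 and the second for ICOSL.

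Of 40545 barcodes, 39167 cells passed the filters, and their unique molecular identifiers (UMIs) summed to between 31210188 and 63958243 per library. The median was 1759 to 3618 UMIs per cell, with both TLR9-/- libraries above both WT libraries. Cells were assigned to 16 gates by marker genes that did not include any of the 7 genes. The 1482 cells that met the criteria of more than 1 lineage were left out as possible doublets, no doublet caller was run, and 8652 cells met no gate. Among 38362 distinct barcode sequences, 797 occurred in more than 1 library. Levels are given as CPM, the UMIs of a gene per 1000000 UMIs of a gate in a library, with no further scaling. Tlr9 had 2.91 and 4.39 CPM in the plasmacytoid dendritic cells (pDCs) of TLR9-/- libraries 1 and 2 and 17.9 and 8.76 in those of WT libraries 1 and 2.

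T cells were cells with UMIs of at least 2 T-cell receptor or CD3 genes, and 1146 were found, 569 and 296 in TLR9-/- libraries 1 and 2 and 190 and 91 in WT libraries 1 and 2. They were divided into CD4 T cells (19, 34, 12 and 7 in that order), CD8 T cells (140, 83, 29 and 20), natural killer-like T cells (280, 95, 104 and 36) and other T cells (130, 84, 45 and 28). Natural killer-like T cells had no Cd4 or Cd8 UMI but UMIs of at least 2 natural killer genes. Other T cells were all that remained, so this gate could also include cells with UMIs of both Cd4 and Cd8. The natural killer-like gate also held Ncr1, a receptor of natural killer cells, at 0.421 UMIs per cell against 1.16 in the natural killer (NK) gate, whereas Ncr1 had 0 UMIs in the CD4, CD8 and other T gates. By the gate, natural killer-like T cells cannot be told apart from natural killer cells with some T-cell transcripts. Nor can they be told apart from CD8 or CD4 T cells with natural killer genes in which no Cd8 or Cd4 UMI was captured. The part of such CD8 or CD4 T cells in the results was not tested. Values without the cells that had an Ncr1 UMI are given beside the results they touch. Transcripts of the lymph node receptor Ccr7 were found in 164 of the 1146 T cells, and the chemokine Ccl5 of memory and effector cells in 680. The Ccr7 share was 11.6% and 27.4% in TLR9-/- libraries 1 and 2. In WT libraries 1 and 2 it was 5.26% and 7.69%, from 10 and 7 cells. The Ccl5 shares overlapped, at 63.3%, 45.6%, 72.6% and 51.7% in the same order. These shares were taken at unequal depth and not tested by genotype. How many other genes lay apart in this way was not counted. Lyz2 of myeloid cells reached 61.2 to 937 CPM in the T cells of the 4 libraries, S100a8 of neutrophils 369 to 3442 and Hbb-bs of erythroid cells 485 to 1853, and the part of such RNA in the results was not tested.

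All 7 genes are protein-coding, and their positions are given on GRCm38. Tcf7 (ENSMUSG00000000782) lies on chromosome 11 from 52252371 to 52283014, Lef1 (ENSMUSG00000027985) on chromosome 3 from 131110471 to 131224356 and Bcl11b (ENSMUSG00000048251) on chromosome 12 from 107910403 to 108003602. S1pr1 (ENSMUSG00000045092) lies on chromosome 3 from 115710433 to 115715072 and Klf2 (ENSMUSG00000055148) on chromosome 8 from 72319033 to 72321656. Cd28 (ENSMUSG00000026012) and Icos (ENSMUSG00000026009) both lie on chromosome 1, from 60716800 to 60773359 and from 60977927 to 61000320.

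Lef1 and Klf2 had opposite courses along the B lineage, and the 250 bases before a RefSeq start of each (GRCm38.p6, for Lef1 the first of 4 starts listed) are shown for that reason, 5′ to 3′ on the strand of the gene. Capitals mark the letters CTTTG of a TCF/LEF element and CACCC of a KLF element on either strand (CAAAG and GGGTG on the other), which overlap where the first runs into the second. The last 29 bases of the Klf2 window lie inside the gene as GENCODE draws it.
Lef1, chr3:131110047-131110296, plus strand: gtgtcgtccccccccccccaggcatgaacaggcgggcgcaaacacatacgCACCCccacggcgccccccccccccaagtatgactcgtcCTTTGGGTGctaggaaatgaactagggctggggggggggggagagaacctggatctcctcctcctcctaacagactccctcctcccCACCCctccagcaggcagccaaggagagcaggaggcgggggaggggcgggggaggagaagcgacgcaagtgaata
Klf2, chr8:72318812-72319061, plus strand: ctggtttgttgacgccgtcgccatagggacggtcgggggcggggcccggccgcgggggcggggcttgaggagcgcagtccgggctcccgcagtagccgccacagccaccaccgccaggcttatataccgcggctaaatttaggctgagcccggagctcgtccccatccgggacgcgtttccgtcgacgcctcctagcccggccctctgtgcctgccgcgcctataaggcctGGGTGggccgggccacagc
The Lef1 window held 1 TCF/LEF match and 3 KLF matches, and the Klf2 window held 0 and 1. Of all 32851 promoter windows of this length, 48.6% held the TCF/LEF letters and 52% the KLF letters, so these matches are common. The ETS letters CCGGAA (12% of windows) and the RUNX letters TGTGGT (14%) were searched on both strands as well and were found in neither window. Promoter entries were found for 4 of the 7 genes, and S1pr1, Cd28 and Icos had none.

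Over the 16 gates the levels followed the functional groups only in part. Bcl11b, Icos and Tcf7 had most of their UMIs in T cells, Cd28 also had UMIs in pDCs, Lef1 and S1pr1 were shared with opposite ends of the B lineage, and Klf2 was found in nearly every gate. T cells held 79.9% of all Bcl11b UMIs (306 of 383), 63.8% of Icos UMIs (148 of 232) and 62.5% of Tcf7 UMIs (514 of 822). They held 34.0% of Cd28 UMIs (273 of 803), 14.9% of S1pr1 UMIs (226 of 1518), 9.01% of Lef1 UMIs (334 of 3708) and 3.46% of Klf2 UMIs (765 of 22129). B-cell precursors alone held 81.4% of the Lef1 UMIs.

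**Figure D1:**
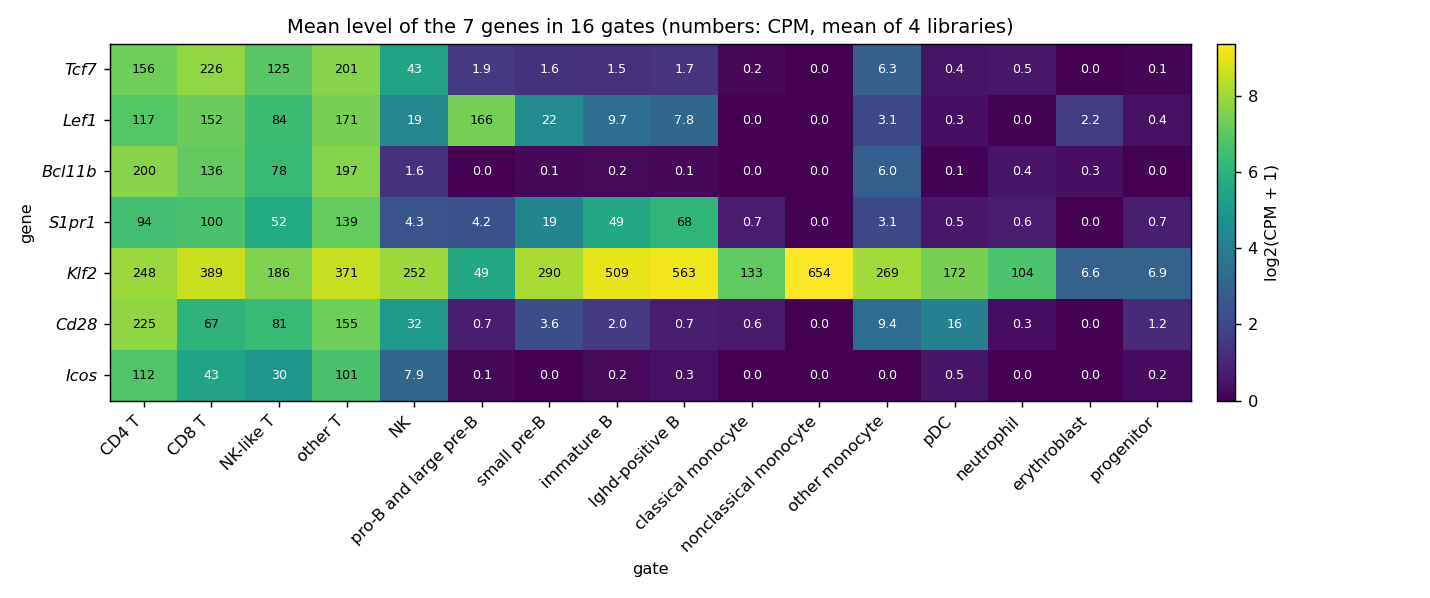
Mean level of each gene (rows) in each of the 16 gates (columns), as CPM averaged over the 4 libraries, with the colour on a log2 scale after adding 1. Klf2 is spread over most columns, Lef1 has a second maximum of 166 in pro-B and large pre-B cells, and Bcl11b is at 6.03 or below outside the T-cell columns.

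The source of the members' UMIs differed between libraries. T cells contributed 14.1% and 25.3% of the Lef1 UMIs in TLR9-/- libraries 1 and 2 but 1.99% and 3.44% in WT libraries 1 and 2. For S1pr1 the T-cell share was 25.5% and 20.1% against 5.63% and 6.55%, and for Tcf7 70.8% and 68.7% against 46.2% and 37.1%. Both TLR9-/- values exceeded both WT values in these 3 genes and in Bcl11b (82.9% and 85% against 64.4% and 77.6%), Klf2 (5.5% and 4.44% against 1.95% and 1.44%) and Cd28 (37.2% and 35.8% against 32.1% and 23%), but not in Icos (56.8% and 71.3% against 76.7% and 45%). Of all cells kept, T cells were themselves 5.28% and 3.32% in TLR9-/- and 1.80% and 1.02% in WT. The same shares were not counted for other genes, so the lack of overlap is not read as particular to the members. For this reason all further levels are given within gates.

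Among T-cell gates, Tcf7 was highest on average in CD8 T cells. There, its level was 205 and 218 CPM in TLR9-/- libraries 1 and 2 and 175 and 306 in WT libraries 1 and 2 (226 ± 56.4, SD over the 4 libraries). In other T cells the values were 149, 344, 74.9 and 237 in the same order, in CD4 T cells 125, 220, 65.0 and 213, and in natural killer-like T cells 141, 98.6, 106 and 154. The ranges of these 4 gates overlapped one with the next, and the NK gate, at 25.6 to 70.8, lay below all of the natural killer-like T values. In B-lineage gates Tcf7 was at most 3.24 and it had 0 UMIs in erythroblasts of every library.

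Lef1 was measured at 145 and 158 CPM in CD8 T cells of TLR9-/- libraries 1 and 2 and at 58.4 and 245 in those of WT libraries 1 and 2. The WT pair spanned the TLR9-/- values. CD4 T cells had 89.0, 144, 21.7 and 213 in the same order, other T cells 165, 279, 74.9 and 164, and natural killer-like T cells 57.8, 33.4, 52.8 and 192. WT library 1 was lowest in the CD4, CD8 and other T gates, and WT library 2 was highest in the CD4, CD8 and natural killer-like gates. The spread within WT was thus as wide as any difference between the means of these gates. The values of WT libraries 1 and 2 rest on 1 and 3 UMIs in CD4 and 4 and 12 in CD8 T cells. In other T cells they rest on 5 and 9, and in natural killer-like T cells on 11 and 15. The part of counting error in this spread was not tested.

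Bcl11b reached 115, 89.0, 73.0 and 266 CPM in CD8 T cells of TLR9-/- libraries 1 and 2 and WT libraries 1 and 2. In other T cells it was at 165, 213, 135 and 274, and in natural killer-like T cells at 43.7, 33.4, 96.0 and 141. Every natural killer-like value of the TLR9-/- libraries lay below those of the WT libraries. CD4 T cells had 142, 144, 86.6 and 426, of which the last rests on 7 cells. NK cells had 2 Bcl11b UMIs in all, against 81 in natural killer-like T cells.

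S1pr1 had a wide range in T cells, which included that of Ighd-positive B cells. CD8 T cells had 51.9, 75.8, 87.6 and 184 CPM, CD4 T cells 142, 119, 43.3 and 71.0, and other T cells 124, 246, 59.9 and 128, in the order TLR9-/- 1 and 2, then WT 1 and 2. In natural killer-like T cells the values were 42.3, 24.6, 24.0 and 115. NK cells had 5 S1pr1 UMIs in all and at most 7.86 CPM.

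Klf2 had 347, 214, 423 and 572 CPM in CD8 T cells, 434, 268, 344 and 438 in other T cells, and 267, 195, 173 and 355 in CD4 T cells. In natural killer-like T cells it was at 207, 88.0, 245 and 205, below the CD8 and other T cells of each library but not below the CD4 T cells of WT library 1, and TLR9-/- library 2 stood below the other 3 libraries. NK cells, which had almost no S1pr1, had Klf2 at 281, 55.0, 414 and 259.

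Cd28 and Icos were both highest on average in CD4 T cells and next highest in other T cells. Icos was at 125 and 186 CPM in CD4 T cells of the TLR9-/- libraries and at 65.0 and 71.0 in those of the WT libraries. These CD4 values rest on 7 and 22 UMIs in TLR9-/- and on 3 and 1 in WT. That was too few for Icos to enter the main genotype test of this gate. In other T cells Icos was at 116, 142, 89.8 and 54.8. CD8 T cells had 19.1, 19.8, 131 and 0, and natural killer-like T cells 16.9, 14.1, 24.0 and 64.0. Cd28 was at 107, 186, 108 and 497 in CD4 T cells, of which the last rests on 7 cells, and at 149, 142, 240 and 91.3 in other T cells. In CD8 T cells Cd28 was at 49.2, 56.1, 102 and 61.3 and in natural killer-like T cells at 67.7, 47.5, 106 and 102, so these 2 gates overlapped widely. Other T cells also held Foxp3, the factor of regulatory T cells, at 53.7, 71.1, 15 and 91.3 CPM.

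**Figure D2:**
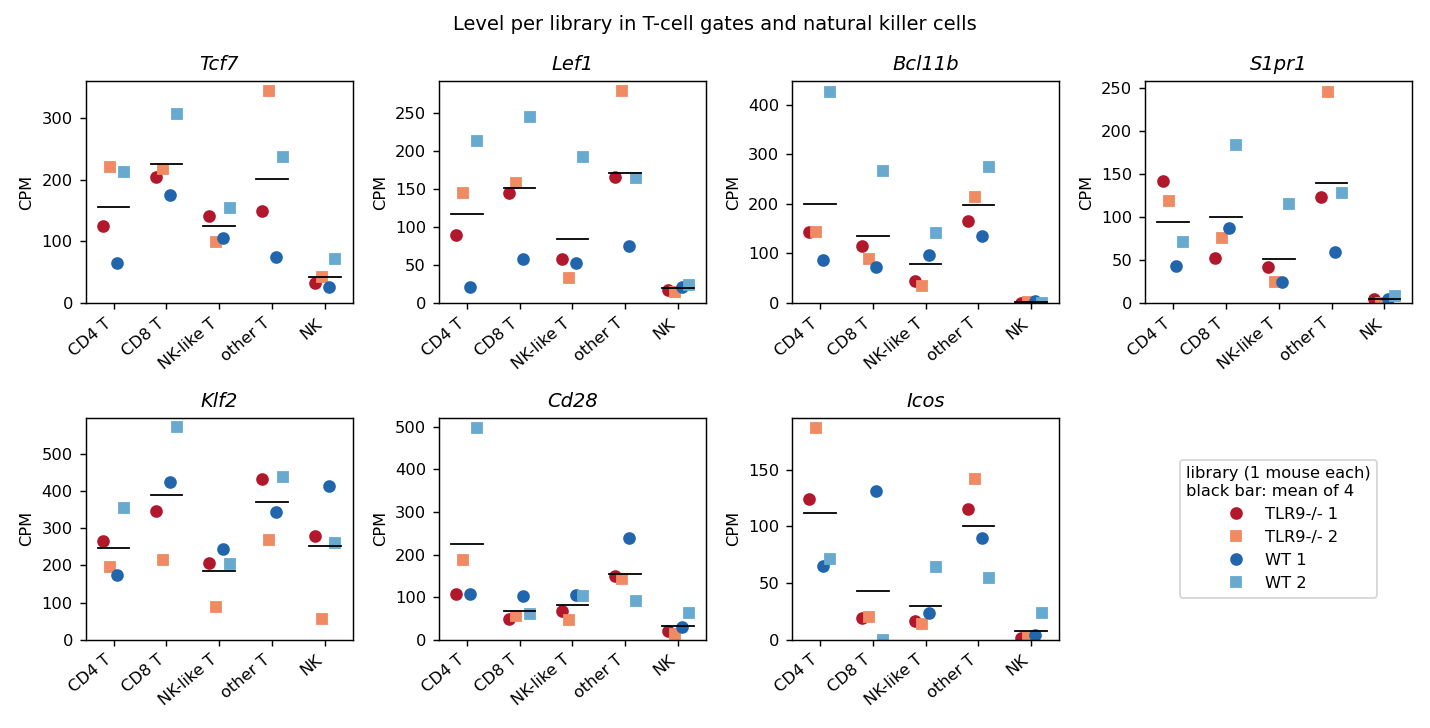
Level of each gene in CPM (vertical axes, each from 0) in 4 T-cell gates and in NK cells, 1 point per library with TLR9-/- in red and orange, WT in blue tones and the mean of 4 libraries as a black bar. The points of a gate spread widely, with WT library 2 high for Lef1 and Bcl11b in CD4 and CD8 T cells, and Bcl11b and S1pr1 fall to 4.27 or below and 7.86 or below in NK cells.

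Whether the T-cell gates differed from each other was tested within mice, on UMIs summed per library and gate with the library as a term (edgeR's quasi-likelihood test on TMM-scaled sums, two-sided, Benjamini-Hochberg adjustment over all genes tested). Natural killer-like T cells had less Tcf7, Lef1, Bcl11b and Klf2 than CD8 T cells of the same mice. This comparison was added after the data had been seen, because the CD4 gate was too small for the comparisons first planned. Of 3005 genes tested, 108 (3.59%) passed the threshold of 0.05, and of the 7 members 6 were tested and 4 passed.

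Klf2 differed by −1.09 on the log2 scale (SE, its standard error, 0.18, adjusted p = 0.000927), and the CD8 level was 1.67, 2.43, 1.73 and 2.79 times the natural killer-like level in TLR9-/- libraries 1 and 2 and WT libraries 1 and 2. Tcf7 had −0.91 (SE 0.20, adjusted p = 0.0107), with CD8 levels 1.45, 2.21, 1.66 and 1.99 times as high. Lef1 had −1.39 (SE 0.29, adjusted p = 0.00805), with 2.51, 4.73, 1.11 and 1.28. For these 3 genes all 4 libraries had the higher level in CD8 T cells, though the ratios of Lef1 in the WT libraries were close to 1.

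Bcl11b had −1.11 (SE 0.29, adjusted p = 0.0385) and was higher in CD8 T cells in 3 of 4 libraries, the exception being WT library 1. S1pr1, at −1.04 (SE 0.32, adjusted p = 0.0855), did not pass, although all 4 libraries had the higher level in CD8 T cells. Cd28 had 0.10 (SE 0.29, adjusted p = 0.976), and Icos had too few UMIs to be tested. Without the cells that had an Ncr1 UMI, the values were −1.21 for Klf2 (adjusted p = 0.00148), −0.92 for Tcf7 (0.0282), −1.32 for Lef1 (0.0168) and −0.85 for Bcl11b, which no longer passed (adjusted p = 0.152).

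The calls rested on single libraries to different degrees. Klf2 passed with any library left out, whereas Tcf7 did not pass without TLR9-/- library 2 (−0.73, adjusted p = 0.0602) and Lef1 did not pass without TLR9-/- library 1 (−1.37, adjusted p = 0.0590). Bcl11b did not pass without TLR9-/- library 1 (−0.89, adjusted p = 0.313), without TLR9-/- library 2 (−1.01, adjusted p = 0.0933) or without WT library 2 (−1.13, adjusted p = 0.0733). With DESeq2 all 6 members had the same direction as in edgeR, with log2 fold changes of −1.10 for Klf2, −0.92 for Tcf7, −1.25 for Lef1 and −1.04 for Bcl11b, but DESeq2 gave no adjusted p for them.

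The other genes of these pathways were read from 5 lists. Of 13 effector and memory genes tested in this comparison, 6 were higher in natural killer-like T cells and 0 lower. Those higher included the granzyme gene Gzma (log2 fold change 1.97), the interleukin-15 receptor chain Il2rb (1.61) and the factor Id2 (1.54). Il2rb and Nkg7, both on this list, are among the genes that define the natural killer-like gate. Neither was taken out of the list, so the count and the list median are in part set by the gate. Of 11 other genes of naive and central memory cells and homing, 3 were lower and 0 higher, led by Dapl1 (−4.70) and the lymph node receptor Ccr7 (−3.79). Among 5 genes of the CD28 family, its signalling partners and ligands, the adaptor Grap2 was lower (−1.52). None of 10 other T-cell transcription factors and none of 3 partners and targets of TCF and LEF passed, with 5 and 0 of them at an unadjusted p under 0.05. The list medians were 0.80, −0.45, −0.18, −0.46 and −0.27 in the order given here, against 0.02 over all genes tested.

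CD4 T cells could be compared only with at least 5 cells per library in place of 10, a limit set after the data had been seen. CD8 against CD4 T cells gave 0 of 2 members tested (30 of 734 genes, 4.09%). Tcf7 was higher in CD8 T cells by 0.59 on the log2 scale (SE 0.31, adjusted p = 0.414) and Klf2 by 0.66 (SE 0.27, adjusted p = 0.263). Natural killer-like against CD4 T cells gave 0 of 4 members tested (20 of 1220 genes, 1.64%), with Bcl11b at −1.32 (SE 0.43, adjusted p = 0.394) and Cd28 at −1.18 (SE 0.42, adjusted p = 0.523). Icos had too few UMIs for that fit, and with no filter on low counts it was lower in natural killer-like T cells (−2.11, SE 0.55, adjusted p = 0.0247). In the second comparison 3 of 10 effector and memory genes were higher in natural killer-like T cells, Gzma by 3.98, Ccl5 by 3.38 and Il2rb by 1.65. Il2rb is a gene of the natural killer-like gate, so its call was favoured by the choice of cells.

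CD8 T cells were also divided by Ccl5, a chemokine kept in memory cells, into 75, 25, 16 and 8 cells with a UMI and 65, 58, 13 and 12 without, and this split was run with the same lower limit. The Tcf7 level was 143, 174, 144 and 227 CPM in the Ccl5-positive cells of TLR9-/- libraries 1 and 2 and WT libraries 1 and 2, and 296, 238, 225 and 350 in the Ccl5-negative cells. Ccl5-positive cells were the lower in all 4 libraries, and the log2 fold change was −0.75 (SE 0.26), which did not pass (adjusted p = 0.342). Lef1 was also the lower in all 4, at 73.6, 40.9, 47.9 and 114 against 249, 214, 74.9 and 319, but had too few UMIs for the filter. These levels rest on 16, 4, 2 and 2 UMIs against 37, 44, 2 and 10, so the WT libraries add little. With no filter on low counts Lef1 passed (−1.79, SE 0.42, adjusted p = 0.00659). Klf2 was lower in Ccl5-positive cells in 2 of 4 libraries (−0.33, SE 0.27, adjusted p = 0.879). Here 11 of 782 genes (1.41%) and 0 of 2 members passed, and beside Ccl5 itself the listed genes that passed were Il2rb (2.42), Nkg7 (1.00) and Il7r (−1.44).

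At the level of single T cells the members overlapped in part. Lef1 had a UMI in 252 of 1146 T cells (22.0%) and Tcf7 in 365 (31.9%). In 102 cells both were found, which is 40.5% of the Lef1-positive and 27.9% of the Tcf7-positive cells. Of the Lef1-positive cells, 32.7% and 49.5% had Tcf7 in TLR9-/- libraries 1 and 2 and 30% and 48% in WT libraries 1 and 2. Of all T cells, 28.8%, 46.0%, 18.9% and 31.9% had it in the same order. Of 164 cells with Ccr7, 80 had Lef1 (48.8%) and 8 had Icos (4.88%), against 22.0% and 9.1% of all T cells. Of 104 cells with Icos, 10 had Lef1 (9.62%), against 22.0% of all T cells, with 4 of 41, 4 of 40, 2 of 16 and 0 of 7 in the 4 libraries. A deeper cell shows more pairs of genes, so these shares describe the cells as sequenced, and they carry no test.

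To compare T cells of the 2 genotypes at 1 depth, every T cell was thinned to 1000 UMIs, which kept 528, 291, 165 and 88 cells and left out the shallower ones. The share of cells with a Tcf7 UMI was then 16.3% and 21.3% in TLR9-/- libraries 1 and 2 and 11.5% and 20.5% in WT libraries 1 and 2 (exact permutation test, two-sided p = 0.667). Before thinning it was 28.8%, 46.0%, 18.9% and 31.9%, against at most 0.326% in neutrophils, with median depths of 1738 to 2449 UMIs in T cells and 2069 to 3183 in neutrophils. For Lef1 the thinned shares were 11.6%, 16.8%, 3.64% and 15.9%, and the unthinned shares were 19.3%, 32.1%, 10.5% and 29.7% against at most 0.0652% in neutrophils. Cd28 had 9.66% and 9.97% against 13.3% and 14.8% after thinning, without overlap, but the test cannot go below 0.33 with 2 libraries against 2 (exact p = 0.333), and before thinning the Cd28 shares overlapped at 16.5%, 25.0%, 21.1% and 18.7%. None of the 7 genes can pass such a test in this design.

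Genotype was compared next between the 2 TLR9-/- and the 2 WT libraries, in all T cells and in their CD4, CD8 and natural killer-like gates. It was also compared in B-cell precursors, Ighd-positive B cells and monocytes, and the levels of no other gate were tested on their own. No member passed the threshold in any of these comparisons. Over all T cells, 5 of 6890 genes passed (0.0726%), 426 had an unadjusted p under 0.05 and DESeq2 called 8. Of the 7 members, all tested, 0 passed, and 2 had an unadjusted p under 0.05. Tcf7 had 159 and 180 CPM in TLR9-/- T cells and 108 and 219 in WT T cells, a log2 difference of 0.07 (SE 0.32, adjusted p = 0.990). Lef1 had 101, 115, 53.9 and 199 (−0.14, SE 0.47, adjusted p = 0.980), S1pr1 63.3, 81.9, 43.6 and 133 (−0.19, SE 0.44, adjusted p = 0.969) and Icos 39.3, 52.9, 59.0 and 45.9 (−0.29, SE 0.34, adjusted p = 0.924). In these 4 genes the genotypes overlapped.

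Cd28 and Bcl11b were the members whose T-cell levels lay apart by genotype. How many other genes lay apart in this way was not counted, in T cells or in other gates. The separation is therefore not read as particular to these members. Cd28 had 78.6 and 78.5 CPM in TLR9-/- and 128 and 117 in WT T cells, a log2 difference of −0.71 (SE 0.25, adjusted p = 0.80, unadjusted 0.0213). Bcl11b had 88.1 and 87.0 against 97.5 and 230, or −0.87 (SE 0.36, adjusted p = 0.80, unadjusted 0.0389). Klf2 had 287 and 160 against 285 and 373 (−0.59, SE 0.31, adjusted p = 0.818), with WT library 1 just below TLR9-/- library 1. Without the natural killer-like T cells the log2 fold changes of Cd28 and Bcl11b were −0.51 and −0.41, and neither passed. The Bcl11b value also rested on WT library 2, without which it was −0.24.

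Within CD8 T cells 0 of 2364 genes passed (0%), 156 had an unadjusted p under 0.05 with edgeR and DESeq2 called 0, and of the 7 members 6 were tested. The largest differences were those of S1pr1 (−1.05, SE 0.53, adjusted p = 0.849) and of Klf2, which had −0.84 (SE 0.34, adjusted p = 0.711). Tcf7 differed by −0.18 (SE 0.37) and Lef1 by 0.07 (SE 0.57), each less than its standard error. Within CD4 T cells 0 of 745 genes passed (0%), 13 had an unadjusted p under 0.05 and DESeq2 called 0. Only Tcf7 (0.71, SE 0.82) and Klf2 (−0.04, SE 0.58) had enough UMIs there, and neither passed.

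Natural killer-like T cells had 6 of 4376 genes past the threshold (0.137%) and 0 of 6 members. Bcl11b came closest, at −1.60 (SE 0.42, unadjusted p = 0.00306, adjusted p = 0.342). Without TLR9-/- library 1, which leaves 1 library in that arm, it had −1.69. Without cells that had an Ncr1 UMI it had −1.36 (adjusted p = 0.743). The Ncr1 level of this gate was 172, 114, 120 and 64.0 CPM in TLR9-/- libraries 1 and 2 and WT libraries 1 and 2, and the part of natural killer cells in the Bcl11b difference was not tested further. Lef1 had −1.23 (SE 0.58, adjusted p = 0.713) and Cd28 −0.92 (SE 0.40, adjusted p = 0.703).

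The genotype differences of CD8 and natural killer-like T cells were set against each other by an interaction term, again added after the data had been seen. It called 1 of 4000 genes (0.025%) and 0 of 7 members. For Lef1 the difference of the 2 genotype effects was 1.52 on the log2 scale (SE 0.58, unadjusted p = 0.0184, adjusted p = 0.994), and for Bcl11b 1.15 (SE 0.58, adjusted p = 0.994). The same term for CD8 and CD4 T cells called 4 of 1029 genes (0.389%) and 0 of 5 members.

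**Figure D3:**
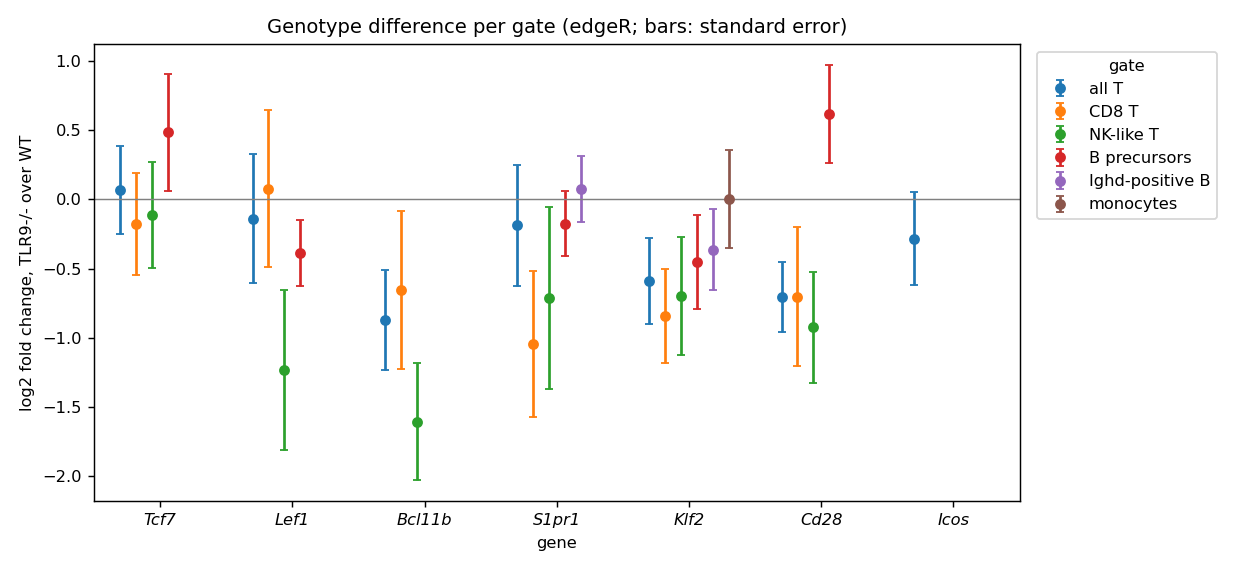
Log2 fold change of TLR9-/- over WT (vertical axis) for each gene (horizontal axis) in 6 gates, drawn with the standard error from edgeR, with 2 libraries per genotype and only the genes that had enough UMIs in a gate. In the 3 T-cell gates drawn the points of Bcl11b, S1pr1, Klf2 and Cd28 lie below 0, down to −1.60 for Bcl11b in natural killer-like T cells. No point passed after adjustment.

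None of the 5 gene lists had a member past the threshold in a genotype comparison. In all T cells the listed genes with the smallest p were Il7r (−1.32, SE 0.25, adjusted p = 0.240 with edgeR), Tox (−1.31, adjusted p = 0.646) and the co-stimulatory receptor Tnfrsf4 (−1.47, adjusted p = 0.80). Il7r was also first of its lists in natural killer-like T cells (−1.99, adjusted p = 0.110). Of 12 naive and homing genes tested in all T cells 1 had an unadjusted p under 0.05, and of 15 transcription factors 2, 17 effector and memory genes 1, 9 CD28 family genes 1 and 5 TCF and LEF partners 0, where 426 of all 6890 genes had one.

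Outside T cells, Lef1 marked the earliest B-cell gate. In pro-B and large pre-B cells, which make the surrogate light chain, it had 159, 127, 206 and 173 CPM in TLR9-/- libraries 1 and 2 and WT libraries 1 and 2, a range that overlapped that of CD8 T cells. Between 48.5% and 55.0% of these cells had a Lef1 UMI, at median depths of 2565 to 7265. In small pre-B cells it was at 22.6, 13.6, 30.6 and 21.2, in immature B cells at 6.46, 4.42, 16.2 and 11.8, and in Ighd-positive B cells at 6.47, 2.21, 15.9 and 6.73. Every library had the same order from pro-B to small pre-B to immature cells, with a pro-B level 6.72 to 9.30 times that of small pre-B cells and 13 to 57.3 times that of Ighd-positive B cells.

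S1pr1 and Klf2 ran the other way along the same gates. S1pr1 was at 3.46, 6.26, 4.16 and 2.74 CPM in pro-B and large pre-B cells, at 15.1, 19.1, 19.2 and 21.4 in small pre-B cells, at 53.5, 57.5, 38.8 and 48.1 in immature B cells and at 59.9, 80.1, 60.8 and 72.2 in Ighd-positive B cells. The first 3 gates did not overlap with each other, and the level was higher at every step in all 4 libraries. Klf2 was at 51.9, 30.9, 72.2 and 41.7 in pro-B and large pre-B cells, at 339, 167, 378 and 276 in small pre-B cells, at 585, 282, 658 and 513 in immature cells and at 649, 344, 662 and 596 in Ighd-positive B cells. It was also higher at every step in all 4 libraries. These steps were not tested one by one. Small pre-B cells were set apart by the lack of a Ms4a1 UMI, and immature B cells by the lack of an Ighd UMI. The median depths of these gates were 1032.5 to 1653.5 UMIs. Later B cells in which no such UMI was captured cannot be told apart from the cells of these gates. The part of such cells in the levels of S1pr1, Klf2 and Lef1 was not tested.

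**Figure D4:**
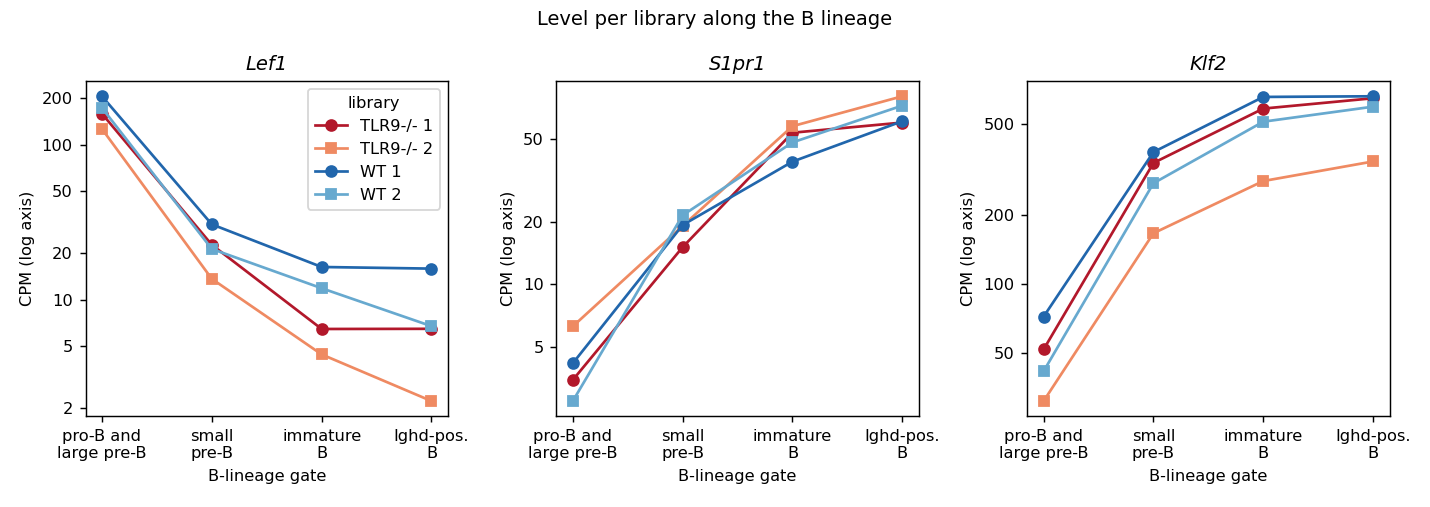
Levels of Lef1, S1pr1 and Klf2 in CPM (log axes) along 4 gates of the B lineage, from pro-B and large pre-B to Ighd-positive B cells, 1 line per library. All 4 lines of Lef1 fall and all 4 lines of S1pr1 and Klf2 rise between the first and the last gate, and the Klf2 line of TLR9-/- library 2 lies below the other 3 throughout.

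Ighd-positive B cells were tested against the B-cell precursors (pro-B, large and small pre-B cells together) within mice. All 3 members with enough UMIs passed, where 3901 of 10244 genes (38.1%) did. Lef1 was lower in Ighd-positive cells, by −3.61 on the log2 scale (SE 0.23, adjusted p = 2.93e-06). S1pr1 was higher by 2.54 (SE 0.12, adjusted p = 1.05e-06), and Klf2 was higher by 1.70 (SE 0.09, adjusted p = 1.83e-06). All 3 calls held under every alternative run, in the same direction. Tcf7, Bcl11b, Cd28 and Icos had too few UMIs in these gates, at most 4.54 CPM in any library.

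The same comparison in the lists gave changes in both directions. Of 11 homing genes tested, 7 were higher and 3 lower in Ighd-positive B cells, with the lymphotoxin genes Ltb (3.19) and Lta (3.17) higher and Il7r, the receptor of the pre-B growth factor, lower (−3.25). Among 8 CD28 family genes, 5 were higher and 0 lower, and they included the ligand genes Icosl (3.09) and Cd86 (3.02) and the inhibitory receptor Btla (2.94). Of 13 transcription factors 8 were higher and 4 lower, of 11 effector and memory genes 4 and 2, and of 6 TCF and LEF partners 0 and 2. The medians of these lists were 0.68, 2.63, 0.51, 0.21 and 0.02, against 0.01 over all genes tested.

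Between genotypes, no member passed in the 2 B-lineage populations tested, the precursors and the Ighd-positive B cells. In B-cell precursors 29 of 11510 genes passed (0.252%) and 0 of 5 members tested, with Lef1 at −0.39 (SE 0.24, adjusted p = 0.617), Klf2 at −0.45 (SE 0.34, adjusted p = 0.688), S1pr1 at −0.18 (SE 0.24), Tcf7 at 0.48 (SE 0.42) and Cd28 at 0.62 (SE 0.35, adjusted p = 0.593). The Lef1 levels were 91.4 and 59.2 CPM in TLR9-/- and 101 and 95.0 in WT precursors, which did not overlap. Among them, pro-B and large pre-B levels lay apart (159 and 127 against 206 and 173). Small pre-B levels overlapped (22.6 and 13.6 against 30.6 and 21.2). In immature B cells, where levels were not tested by genotype, Lef1 was at 6.46 and 4.42 against 16.2 and 11.8 CPM, from 12 UMIs against 40, also without overlap. How many other genes lay apart in these gates was not counted, so this is not read as particular to Lef1. In Ighd-positive B cells 10 of 8148 genes passed (0.123%) and 0 of 2 members, with S1pr1 at 0.08 (SE 0.24) and Klf2 at −0.36 (SE 0.29, adjusted p = 0.880).

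Of the members, only Klf2 had enough UMIs for a test in monocytes, and its level separated their 2 kinds. Nonclassical monocytes, the patrolling cells of blood vessels, had 606, 288, 841 and 882 CPM in TLR9-/- libraries 1 and 2 and WT libraries 1 and 2, and classical monocytes had 185, 107, 166 and 75.6. The 2 gates did not overlap, and the ratio was 3.27, 2.70, 5.07 and 11.7. The log2 fold change was 1.96 (SE 0.31, adjusted p = 2.02e-08) where 240 of 3598 genes passed (6.67%) and the median of all genes was −0.20. This comparison used the limit of 5 cells, as the nonclassical gate held 22, 13, 11 and 9 cells and 62 Klf2 UMIs in all, and it held in every alternative run. Of the lists, 3 of 4 homing genes were lower in nonclassical monocytes, 3 of 7 effector and memory genes were lower, led by Lgals1 (−3.88), and of 2 CD28 family genes 1 was higher. None of 5 transcription factors and none of 2 TCF and LEF partners passed, and 0 of either had an unadjusted p under 0.05.

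Between genotypes, the Klf2 level of all monocytes differed by −0.0005 on the log2 scale (SE 0.35, adjusted p = 1.00), with 202 and 112 CPM in TLR9-/- and 210 and 97.2 in WT libraries. Here 13 of 7804 genes (0.167%) and 0 of 1 member passed. The 2 libraries of each genotype differed by more than the genotypes did.

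Klf2 differed between the libraries of a genotype in the same way across gates. In the 13 gates with at least 10 cells in every library and 10 Klf2 UMIs in all, TLR9-/- library 2 was below TLR9-/- library 1 in 13 and WT library 2 was below WT library 1 in 10. Fos, an immediate early response gene, was examined beside it after the values had been seen. In B-cell precursors Fos was at 134 and 21.7 CPM in TLR9-/- libraries 1 and 2 and at 54.6 and 20.7 in WT libraries 1 and 2, and in classical monocytes at 687, 178, 386 and 182. In T cells it was at 141, 23.9, 87.2 and 20.4, where the Klf2 levels were 287, 160, 285 and 373. The libraries numbered 2 thus had less Fos than the libraries numbered 1 of the same genotype in all 6 gates looked at. Jun, another such gene, was lower in TLR9-/- library 2 than in library 1 in all 6 but not so in WT, where T cells had 12.8 and 20.4 CPM and nonclassical monocytes 129 and 240 in libraries 1 and 2. The part of these differences in the Klf2 values was not tested.

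**Figure D5:**
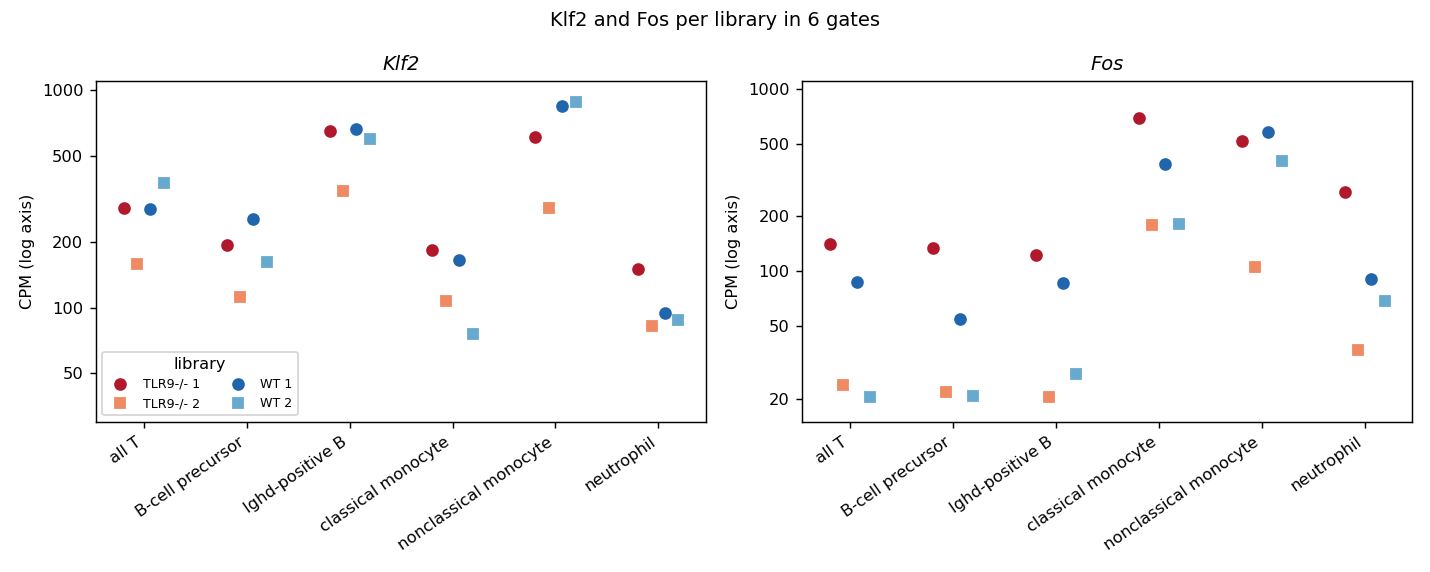
Levels of Klf2 and Fos in CPM (log axes) in 6 gates, 1 point per library. For Fos the squares, which are the libraries numbered 2, lie below the circles of the same genotype in every gate, and for Klf2 the same holds in every gate for TLR9-/- but not for WT in all T cells and in nonclassical monocytes.

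Cd28 was also found outside T cells, which held 273 of its 803 UMIs. Cells with no gate or more than 1 lineage held 227. NK cells had 20.8, 12.7, 29.9 and 62.9 CPM in TLR9-/- libraries 1 and 2 and WT libraries 1 and 2, from 33 UMIs. In pDCs, which made up 2500 cells, it was at 18.3, 16.5, 17.3 and 13.5 CPM in TLR9-/- libraries 1 and 2 and WT libraries 1 and 2, and 4.56% to 8.14% of the cells had a UMI, or at most 2.09% after thinning to 1000 UMIs. Neutrophils had a Cd28 UMI in at most 0.207% of cells, at median depths of 2069 to 3183 UMIs against 2026 to 3720 in pDCs, and erythroblasts had 0 UMIs of Cd28 in all 1662 cells, which allows a share of cells with a UMI, though not of expressing cells, of up to 0.181% by counting error alone. The pDC values lay above every B-lineage value in the same library, and they held 157 of the 803 Cd28 UMIs. Of the T-cell gene Icos pDCs had 4 UMIs, of Bcl11b 1 and of Tcf7 6, so the other T-cell members had few UMIs there.

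Across the 16 gates, the members' patterns were compared by the Pearson correlation of the mean log2 level (after adding 10 CPM) over the 4 libraries. These values are descriptions over 16 gates that share libraries, and genes with few UMIs are less certain. Tcf7 ran with Bcl11b (r = 0.95), Cd28 (0.95) and Icos (0.91), less with Lef1 (0.78) and S1pr1 (0.74), and little with Klf2 (0.31). The genes most like Tcf7 were Cd96, Trbc2 and Skap1 (each r = 0.99), and those most like Bcl11b were Themis, Trac and Cd3e (0.99 each). Lef1 was most like Patj (0.95), Sit1 (0.93) and Bdh1 (0.91), S1pr1 like Gm8369 (0.96), Cbx7 (0.95) and Dtx1 (0.94), and Klf2 like Btg1 (0.94), Cytip (0.89) and Kif21b (0.89). Among the genes most like Cd28 was Rgs1 (0.97), and among those most like Icos were Tnfrsf25 (0.99) and Trat1 (0.98).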

How the data were processed

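Bone marrow mononuclear cells of 2 TLR9-/- and 2 WT mice had been profiled with 10x 5′ single-cell RNA sequencing, 1 library per mouse. Per the labels, Cell Ranger, STAR, mm10 and Seurat 2.3.4 were used, and the matrix headers name Cell Ranger 3.0.1. The deposited matrices hold whole UMI counts per gene and cell, not normalized. Cells with 200 to 10000 genes and at most 10% mitochondrial UMIs were kept, after the limits of the methods, whose mitochondrial limit was read as a percentage of 10. Depth differed between libraries. The limit given for a count of 0 covers counting error only. Standard errors and p-values of genotype comparisons include the spread of levels between these mice. Those of comparisons within mice include only the spread between mice of the difference between gates. The methods describe 2 experiments with a mouse of each genotype in each. The labels do not tie the replicate numbers to them, so genotype was fitted without a block, and the fit with the number as a block was an alternative.

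Gates required UMIs of at least 2 markers of a lineage, except those of neutrophils and erythroblasts. Neutrophils needed at least 10% of their UMIs on neutrophil genes, and erythroblasts at least 20% on globin genes. UMIs were summed per library and gate and tested with edgeR 4.0.16 (R 4.3.3, TMM, filterByExpr, quasi-likelihood, two-sided, Benjamini-Hochberg, threshold 0.05), with the library as a term for comparisons within mice. At least 10 cells per library were required. Because a CD4 gate held 7 cells, CD4 comparisons, the Ccl5 split and the monocyte comparison were run with at least 5, and CD8 against natural killer-like T cells was added, all after seeing the data. Alternatives were DESeq2 1.42.0, its size factors in edgeR, no filter on low counts, thinning to 1000 UMIs per cell, gates with 3 markers, each library left out, and a replicate block. Scripts used Python 3.11.15, numpy 2.4.6, scipy 1.17.1, pandas 2.3.3 and matplotlib 3.10.9 and were tested on simulated data. The members and gene lists were chosen with earlier results of these data known. All members were named in every gate, and of the lists up to 6 genes past the threshold by size, or up to 3 by smallest p where none passed. Sequences and positions came from RefSeq GRCm38.p6 and GENCODE vM21. Some genes that this rule names are not reported here.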

Additional observations from a re-analysis of the deposited data

How the results depend on the processing

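No member passed in a genotype comparison under any alternative, except Bcl11b in natural killer-like T cells without TLR9-/- library 1. That fit has 1 library in the TLR9-/- arm. It also had the most calls over all genes among the fits of this gate with a library left out, so the call is not read as a result. All calls of Ighd-positive B cells against precursors and of Klf2 in nonclassical monocytes held. Where DESeq2 gave no adjusted p, the value is not in the counts that follow. This holds for the 4 members called in natural killer-like against CD8 T cells. Of the other values of members tested with the filter, 397 kept direction and side of the threshold, 43 changed direction, 10 lost and 1 gained a call, and 3 shares of T cells with a UMI moved. The TLR9-/- minus WT difference was 11.98 percentage points for Tcf7 with no thinning, and for Cd28 −0.515 at 500 UMIs and 0.895 with no thinning. With no filter, 2 members that had been left untested passed, Icos in natural killer-like against CD4 T cells (−2.11, adjusted p = 0.0247 with edgeR) and Lef1 in the Ccl5 split (−1.79, adjusted p = 0.00659). The cause was not tested. Leaving out a library leaves 1 library in an arm, which is assumed to vary like the others.

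Genes called by genotype in all T cells numbered 8 with DESeq2, 91 with no filter on low counts, 2 at 1000 UMIs per cell, 2 without natural killer-like T cells and 0 to 86 with a library left out. Without a filter there were 7 in CD4 T cells, 38 in CD8 T cells, 89 in natural killer-like T cells, 418 in B-cell precursors, 134 in Ighd-positive B cells and 85 in monocytes. With a library left out the ranges were 0 to 14, 0 to 14, 1 to 138, 20 to 53, 4 to 79 and 24 to 62. Natural killer-like T cells had 0 at 1000 UMIs, 2 with a stricter gate and 1 without Ncr1 cells. B-cell precursors had 111 with DESeq2 and 13 at 1000 UMIs, and monocytes 6 at 1000 UMIs and 21 with a stricter gate. With the replicate block there were 28 in all T cells, 7 in CD8 T cells, 62 in B-cell precursors, 91 in Ighd-positive B cells and 35 in monocytes, with no member called. Deviations of same-numbered libraries correlated at 0.0557, 0.177, 0.161 and 0.147 in all T cells, precursors, Ighd-positive B cells and monocytes. The methods describe 2 experiments with a mouse of each genotype in each, but the labels do not say that the numbers mark them, and with 2 pairs these correlations do not settle it.

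Within mice, CD8 against CD4 T cells gave 60 with DESeq2, 76 with no filter and 2 to 53 with a library left out. Natural killer-like against CD4 T cells gave 79 with no filter, 35 at 1000 UMIs and 3 to 29. The Ccl5 split gave 47, 3 and 3 to 12. Ighd-positive B cells against precursors gave 2420 at 1000 UMIs and 2915 to 3533. Nonclassical against classical monocytes gave 152 with DESeq2, 104 at 1000 UMIs and 115 to 235. Natural killer-like against CD8 T cells gave 22 with DESeq2, 30 with a stricter gate, 58 without Ncr1 cells and 35 to 120, where Tcf7 was not called at 1000 UMIs (−0.64, adjusted p = 0.142 with edgeR), Lef1 with a stricter gate (−1.17, 0.0929), nor Bcl11b at 1000 UMIs (−1.20, 0.0518) or with a stricter gate (−0.99, 0.161).

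The direction of uncalled genotype values changed as follows. In all T cells Lef1 was 0.60 at 1000 UMIs, 0.081 with a stricter gate, 0.52 without natural killer-like and 0.024 without Ncr1 cells. S1pr1 was 0.078 at 1000 UMIs and 0.17 without natural killer-like T cells, and Icos 0.10 without them. With no filter Klf2 in CD4 T cells was 0.38, Tcf7 in CD8 T cells 0.12 and Tcf7 in natural killer-like T cells 0.040. Tcf7 was 0.10 in CD8 T cells with a stricter gate, and in natural killer-like T cells 0.83 at 1000 UMIs and 0.013 without Ncr1 cells. Lef1 in CD8 T cells was −0.0067 with DESeq2, and S1pr1 in precursors 0.19 at 1000 UMIs. Klf2 in monocytes was 0.0018 with DESeq2 size factors, 0.013 with DESeq2, 0.035 with no filter, 0.045 with the replicate block and 0.072 with a stricter gate. Against CD4 T cells with no filter, Tcf7 was 0.12 and Klf2 0.00076 in natural killer-like T cells. With a library left out the values ran in all T cells from −0.38 to 0.57 for Tcf7, −0.88 to 0.92 for Lef1 and −0.88 to 0.65 for S1pr1, in CD4 T cells from −0.14 to 1.38 for Tcf7 and −0.51 to 0.35 for Klf2, and in CD8 T cells from −0.50 to 0.29 for Tcf7, −0.66 to 1.39 for Lef1 and −1.34 to 0.51 for Bcl11b. In natural killer-like T cells they ran from −0.31 to 0.15 for Tcf7 and −1.72 to 0.39 for S1pr1, in precursors from −0.46 to 0.10 for S1pr1, in Ighd-positive B cells from −0.17 to 0.25 for S1pr1 and −0.88 to 0.041 for Klf2, in monocytes from −0.46 to 0.68 for Klf2, and between natural killer-like and CD8 T cells from −0.060 to 0.30 for Cd28. The split of CD4 T cells by S100a4 was not run, since libraries held as few as 2 such cells. The interaction terms were fitted without alternatives.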
